A study of Homo sapiens with 5 samples.

Results

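The genes described here encode complex I, the NADH dehydrogenase of the mitochondrial respiratory chain, and the proteins that help to build it. All protein-coding human genes were taken whose symbol begins with NDUF and whose estimated counts summed to at least 10 over the 5 libraries. This gave 48 genes of the 65217 human gene identifiers in the deposited gene table, and 0 NDUF genes fell under the minimum. By role, 37 were nuclear-encoded complex I subunits and 8 were assembly factors with the symbol NDUFAF. The other 3 were NDUFA4, now counted as a subunit of complex IV, NDUFA4L2, a hypoxia-inducible relative of NDUFA4, and NDUFC2-KCTD14, a readthrough locus. All 48 also passed the filter on low counts, although NDUFC2-KCTD14 did so only through its counts in spleen.

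Complex I takes electrons from NADH at the tip of its matrix arm and passes them along iron-sulfur clusters to ubiquinone, while its membrane arm pumps protons across the inner mitochondrial membrane. Conserved core subunits do the catalysis, and many accessory subunits surround them. Assembly factors bind the intermediates, modify some subunits and leave before the enzyme is complete. In precursor B cell leukaemia, as in other dividing cells, complex I regenerates NAD+ and supports synthesis of aspartate as well as ATP.

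The cells were REH, an established human line of B cell precursor acute lymphoblastic leukaemia with the ETV6-RUNX1 (TEL-AML1) fusion, grown as xenografts in immunodeficient NSG mice that were 6 to 10 weeks old. Both groups carried the same line and host and received no drug: leukaemia cells from the brain (leptomeninges) gave 3 libraries, and leukaemia cells from the spleen gave 2. Each library was pooled RNA of 5 mice after a density gradient, made on separate occasions that the replicate numbers mark, so the spread between libraries covers pools and not single animals. The study is limited to 1 cell line, NSG mice lack mature lymphocytes of their own, and the spleen pool of the third occasion did not pass quality checks, per the labels.

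Each library held between 38387991 and 48764202 estimated counts of human genes. The cells fitted their label: 8 of 9 markers of the B lineage were above 1 CPM, the count scaled to the size of its library, in every library, summing to 6410 to 6910 CPM in brain and 6520 and 6940 CPM in spleen, while VPREB1 was listed at 0 in all 5. Human T cell markers summed to at most 0.174 CPM, with CD3D at 0 in every library, and erythroid markers to at most 0.308 CPM. Myeloid markers summed to between 2.77 and 5.40 CPM over the 5 libraries. Neuronal and glial markers summed to 14.9 to 17.7 CPM in brain and to 10.8 and 11.8 CPM in spleen, almost all of it MBP, with SNAP25 at 0 in all libraries. Their part in the results was not tested. Spleen replicate 1 stood apart for short transcripts: among genes of at least 10 CPM with transcripts under 1000 bases, the median deviation from the gene's mean over 5 libraries was 0.25 on the log2 scale in that library and between -0.13 and 0.028 in the other 4. Its mean fragment length was 167.14 bases, against 141.61 to 152.74 bases elsewhere. The mouse share of reads was 2.58 to 5.70% in brain libraries and 6.33 and 8.87% in spleen libraries.

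In leukaemia cells from brain, a minority of complex I subunits passed the test as lower than in cells from spleen. In the edgeR quasi-likelihood test, adjusted by Benjamini-Hochberg over 20419 genes, 9 of 37 subunits (24.3%) were lower in brain at an adjusted p under 0.05, and 0 were higher. Over all genes tested, 3.5% were lower and 6.01% higher. At an unadjusted p under 0.05, 25 subunits were lower and 0 higher, beside 11.3% and 14.2% of all genes. DESeq2 called 21 lower and 0 higher, where it called 6.67% of all genes lower and 7.56% higher. The median log2 fold change, brain over spleen, was -0.46 for subunits and 0.0066 for all genes tested. Below 0 lay 34 of 37 subunits and 10059 of all 20419 genes. These are bulk libraries, in which fewer cells of a type and less RNA per cell cannot be told apart.

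Brain and spleen libraries can also be compared within the occasions given by the replicate numbers in the sample titles. The deposited spleen columns bear the numbers 2 and 4 where the titles say 1 and 2, so this pairing rests on the titles alone. The median log2 ratio of brain to spleen over the subunits was -0.66 in occasion 1 and -0.27 in occasion 2, against 0.022 and 0.0091 over all genes. Of the subunits, 34 of 37 were lower in brain in both occasions, compared with 32.6% of all genes. In 28 of 37 subunits every brain library lay below both spleen libraries, compared with 19.5% of all genes. When the occasion was added as a replicate block, which leaves 1 residual degree of freedom, 15 subunits were lower, 8 of them among the 9, and 3.97% of all genes were lower.

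The size of the difference depended on single libraries. Spleen replicate 1 held the highest value for 32 of 37 subunits and brain replicate 2 the lowest for 23. The median deviation of the subunits from their own means was -0.19, -0.23 and -0.029 in brain replicates 1 to 3 and 0.44 and 0.052 in spleen replicates 1 and 2 (log2 scale). Without spleen replicate 1, 0 subunits were past the threshold, 10 were lower at an unadjusted p under 0.05 (8.44% of all genes), the median log2 fold change was -0.21, and 1.36% of all genes were lower. Without brain replicate 1, 0 subunits passed and 21 were lower at an unadjusted p under 0.05, beside 0.728% and 8.06% of all genes. Without brain replicate 2, 1 passed, beside 1.25% of all genes. Without spleen replicate 2, 23 were lower and 0 higher, beside 3.87% and 4.07% of all genes. Leaving out either spleen replicate leaves 1 spleen library, which is then assumed to vary as the brain libraries do. Without spleen replicate 2, the library left is spleen replicate 1, in which the subunits were high.

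**Figure D1:**
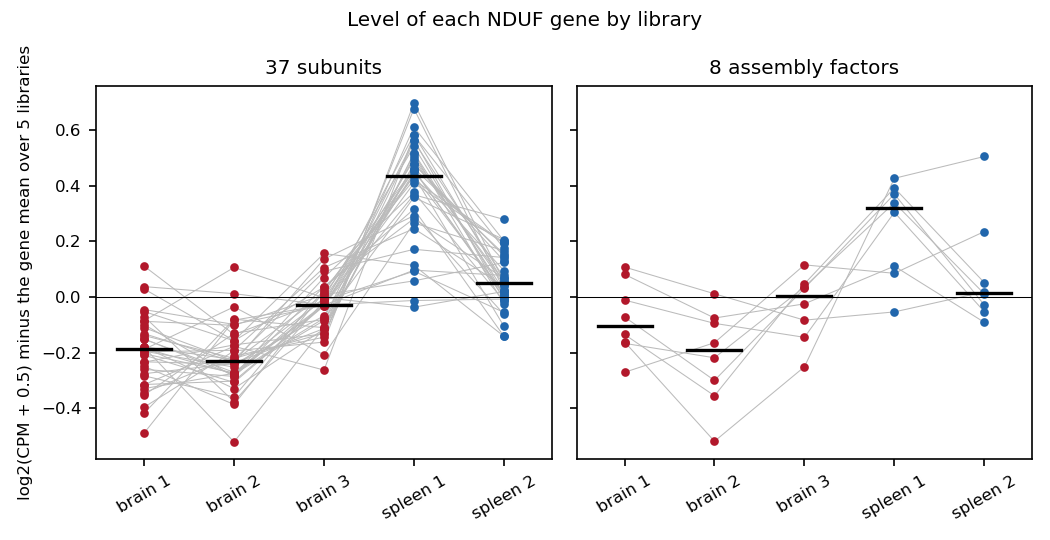
Level of each gene by library, as log2(CPM + 0.5) minus the gene's mean over the 5 libraries; each point is 1 gene, lines join a gene across libraries, and black bars are medians, for 37 subunits (left) and 8 assembly factors (right). The medians of the subunits were -0.19, -0.23 and -0.029 in the brain libraries and 0.44 and 0.052 in the spleen libraries, so spleen replicate 1 sits above the rest.

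Among the subunits, the calls fell on short transcripts. The 9 subunits that were lower in brain all had transcripts under 1000 bases: of 29 such subunits 9 were lower, with a median log2 fold change of -0.47, and of 8 longer subunits 0 were lower, with a median of -0.15 and 0 higher. Of 2861 tested genes of at least 4000 bases, 68 were lower, with a median log2 fold change of 0.081. Among all 4572 tested genes under 1000 bases, 3.39% were lower, beside 3.5% of all genes, and their median log2 fold change was -0.028. Most of these were scarcer than the subunits, and 914 of them reached 10 CPM. Median deviations of those 914 were -0.098, -0.13 and 0.028 in brain replicates 1 to 3, and 0.25 and -0.025 in spleen replicates 1 and 2. The share of the 914 that was lower was not computed. With a trend on transcript length fitted in each library, 14 subunits were lower, the 9 among them, and the median was -0.41, while 5.57% of all genes were lower and 5.82% higher. Abundance was also looked at, because low counts limit calls: among protein-coding genes of at least 10 CPM and any length, 6.04% were lower. With the mouse share of each library as a covariate, 0 subunits passed and 23 were lower at an unadjusted p under 0.05, beside 0.0539% and 6.11% of all genes, so calls were lost across the whole table. The median over the subunits was then -0.69. The mouse share did not overlap between sites, so its part and that of the site cannot be told apart. The part of fragment length in these values was not tested.

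**Figure D2:**
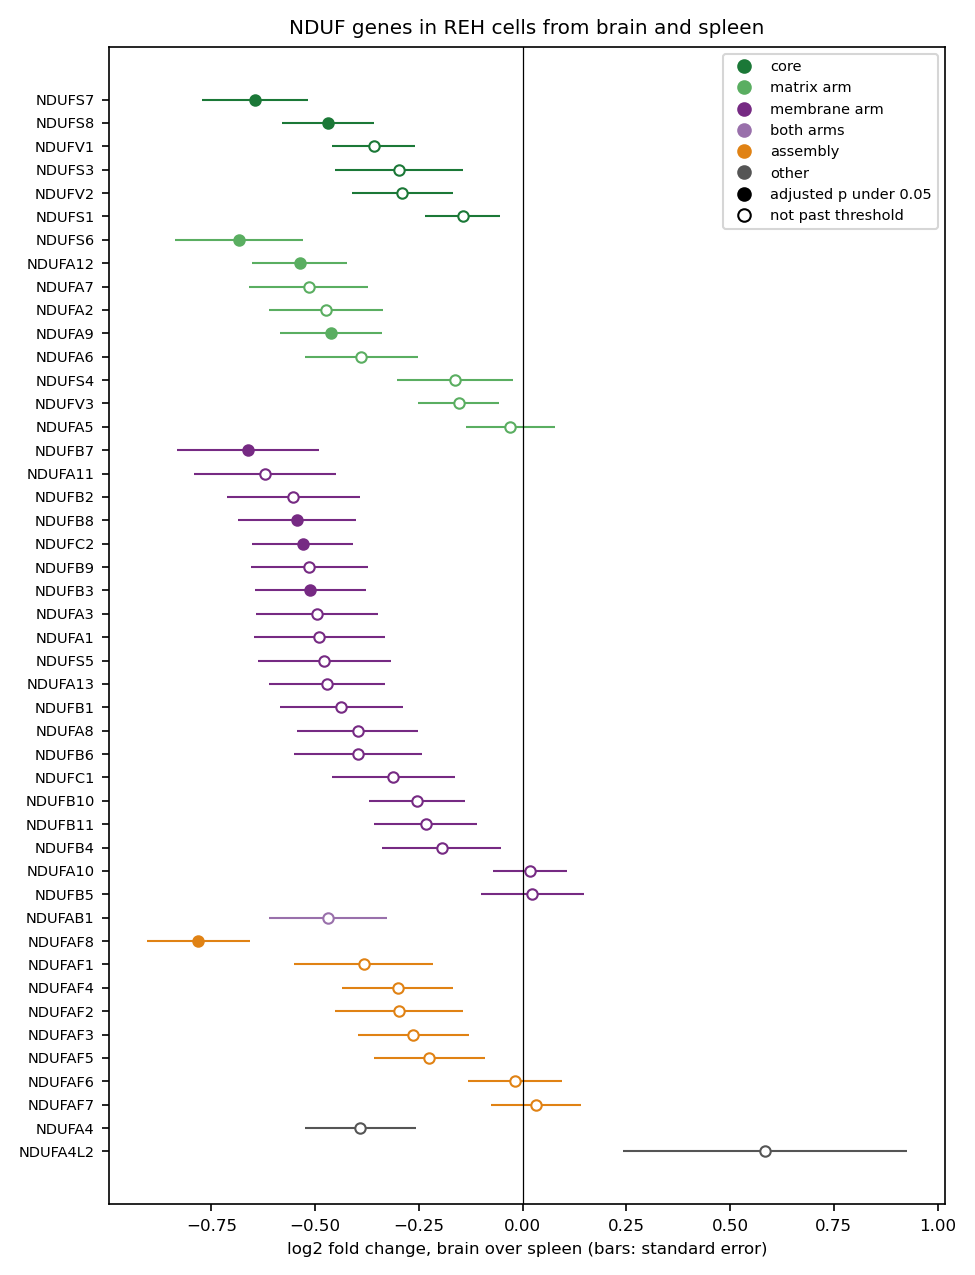
Log2 fold change, brain over spleen, with its standard error for 46 of the 48 NDUF genes, grouped by role; filled points have an adjusted p under 0.05 and open points do not. The readthrough locus NDUFC2-KCTD14 and 1 subunit are left out, and 34 of the subunits drawn lie left of 0, from -0.68 to -0.030.

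The 7 nuclear core subunits carry the flavin, the iron-sulfur clusters and the ubiquinone pocket. Of these 7, 2 were lower in brain, beside 3.5% of all genes, and the median log2 fold change was -0.30. NDUFS7, which holds the last iron-sulfur cluster before ubiquinone, lies on GRCh38 chromosome 19 (1383527-1395589). Its levels were 67.7, 74.6 and 70.3 CPM in brain replicates 1 to 3 and 126 and 95.3 CPM in spleen replicates 1 and 2. The brain libraries lay close together and all below the spleen libraries, which were far apart. Its exons overlap 2 long noncoding RNAs on the opposite strand, by 2693 and 1143 bases, so its value is uncertain. The means were 70.9 ± 3.46 CPM (SD, n = 3) and 111 ± 21.98 CPM (SD, n = 2), the log2 fold change was -0.65 (SE 0.13), and the edgeR adjusted p was 0.0174. NDUFS8, which carries the iron-sulfur clusters that feed NDUFS7, lies on chromosome 11 (68030617-68036644). It was at 64.2, 74.9 and 77.6 CPM in brain and at 105 and 94.8 CPM in spleen, with no overlap. Its log2 fold change was -0.47 (SE 0.11, edgeR adjusted p = 0.0338).

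The other core subunits did not pass. NDUFV1, which binds NADH and the flavin, was just outside the threshold, at 154, 171 and 152 CPM in brain and 211 and 197 CPM in spleen (log2 fold change -0.36, edgeR adjusted p = 0.0572). NDUFS1, the large iron-sulfur subunit next to it, was at 118, 114 and 119 CPM in brain and 130 and 128 CPM in spleen (-0.14, edgeR adjusted p = 0.361). NDUFV2 and NDUFS3 had log2 fold changes of -0.29 and -0.30 (edgeR adjusted p = 0.173 and 0.270).

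Among the 9 accessory subunits of the matrix arm, 3 were lower in brain, beside 3.5% of all genes. The median log2 fold change of the 9 was -0.46. NDUFA12, which takes the place of the assembly factor NDUFAF2 late in assembly, lies on chromosome 12 (94895297-95003748). Its levels were 37.9, 38.3 and 46.3 CPM in brain and 61.1 and 57.5 CPM in spleen. Its spleen libraries were close to each other, unlike those of most subunits, and all brain libraries were below them. The means were 40.8 ± 4.77 CPM (SD, n = 3) and 59.3 ± 2.59 CPM (SD, n = 2), and the log2 fold change was -0.54 (SE 0.11, edgeR adjusted p = 0.0230). NDUFS6, a zinc-binding subunit added with the NADH-oxidising module, lies on chromosome 5 (1801407-1816048) and had the largest fold change of the subunits. It was at 58.1, 45.8 and 61.02 CPM in brain and 101 and 75.8 CPM in spleen, again without overlap (log2 fold change -0.68, SE 0.15, edgeR adjusted p = 0.0289).

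NDUFA9, at the joint of the arms, was the last subunit inside the threshold and is named although the naming rule, which stops at 10 genes, leaves it out. Its levels were 82.4, 81.9 and 92.4 CPM in brain and 132 and 104 CPM in spleen (-0.46, edgeR adjusted p = 0.0494). Exons of NDUFA9 overlap other annotated loci on the same strand, so its counts are uncertain. Of the other 6, NDUFA5 had the log2 fold change nearest to 0, at -0.030 (edgeR adjusted p = 0.904).

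The 20 accessory subunits of the membrane arm held 4 genes that were lower in brain, beside 3.5% of all genes. The median log2 fold change of the 20 was -0.47. NDUFC2, in the part of the membrane arm nearest the matrix arm, lies on chromosome 11 (78068297-78079862). It was at 64.2, 57.9 and 67.2 CPM in brain and 102 and 80.7 CPM in spleen, without overlap (-0.53, SE 0.12, edgeR adjusted p = 0.0305). NDUFB7, on the side of the membrane that faces the intermembrane space, lies on chromosome 19 (14566078-14572066). It was at 59.6, 68.7 and 70.2 CPM in brain and 128 and 81.7 CPM in spleen, with spleen replicate 1 far above the rest (-0.66, SE 0.17, edgeR adjusted p = 0.0453). Without that library the log2 fold change of NDUFB7 was -0.31 (edgeR adjusted p = 0.220). With the replicate block its adjusted p was 0.0599.

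NDUFB8, a distal membrane-arm subunit often used as a protein marker of assembled complex I, lies on chromosome 10 (100523740-100530000). It was at 78.9, 81.0 and 88.4 CPM in brain and 141 and 100 CPM in spleen (-0.54, SE 0.14, edgeR adjusted p = 0.0455). NDUFB3, also in the distal membrane arm, lies on chromosome 2 (201071433-201085750) and was at 43.8, 41.6 and 54.4 CPM in brain and 71.7 and 61.3 CPM in spleen (-0.51, SE 0.13, edgeR adjusted p = 0.0462). In both genes every brain library was below both spleen libraries. Exons of NDUFB8 and NDUFB3 overlap HIF1AN and HYCC2 on the opposite strand, by 325 and 218 bases. The strand setting of the counting is not given in the sources used here, so both values are uncertain. NDUFB8 also shares 675 exon bases with another protein-coding locus on its own strand.

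The most abundant subunits per transcript length belonged to the same arm and lay outside the threshold. NDUFA11, in the membrane arm near the joint, was at 87.2, 95.7 and 100 CPM in brain and 178 and 113 CPM in spleen (-0.62, edgeR adjusted p = 0.0536). NDUFA13, also known as GRIM-19, was at 120, 125 and 128 CPM in brain and 202 and 143 CPM in spleen (-0.47, edgeR adjusted p = 0.0696). NDUFS5 was at 108, 106 and 130 CPM in brain and 189 and 131 CPM in spleen (-0.48, edgeR adjusted p = 0.0992, and 0.0429 with the replicate block). In all 3 the brain libraries lay below both spleen libraries, for NDUFS5 by a narrow margin. Exons of NDUFA11 and NDUFA13 overlap other protein-coding loci on the same strand, by up to 467 and 437 bases, so their counts are uncertain. NDUFB9, NDUFA7 and NDUFV1, with adjusted p of 0.0544, 0.0561 and 0.0572, were the nearest others (with the replicate block NDUFB9 was at 0.0115), and 11 of the 28 subunits outside the threshold had an adjusted p under 0.1.

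Other subunits of this arm had log2 fold changes near 0. NDUFA10, which resembles nucleoside kinases, was at 114, 112 and 109 CPM in brain and 110 and 111 CPM in spleen (0.018, edgeR adjusted p = 0.933), and its log2 fold change is -0.0017 with DESeq2. NDUFB5 was at 72.0, 63.3 and 78.7 CPM in brain and 76.4 and 64.0 CPM in spleen (0.024, edgeR adjusted p = 0.935), and its sign also turned under 4 alternatives. NDUFAB1, the mitochondrial acyl carrier protein that sits in both arms and also serves fatty acid and iron-sulfur cluster synthesis, was at 114, 106 and 129 CPM in brain and 185 and 137 CPM in spleen (-0.47, edgeR adjusted p = 0.0736). With the replicate block the adjusted p of NDUFAB1 was 0.0300.

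**Figure D3:**
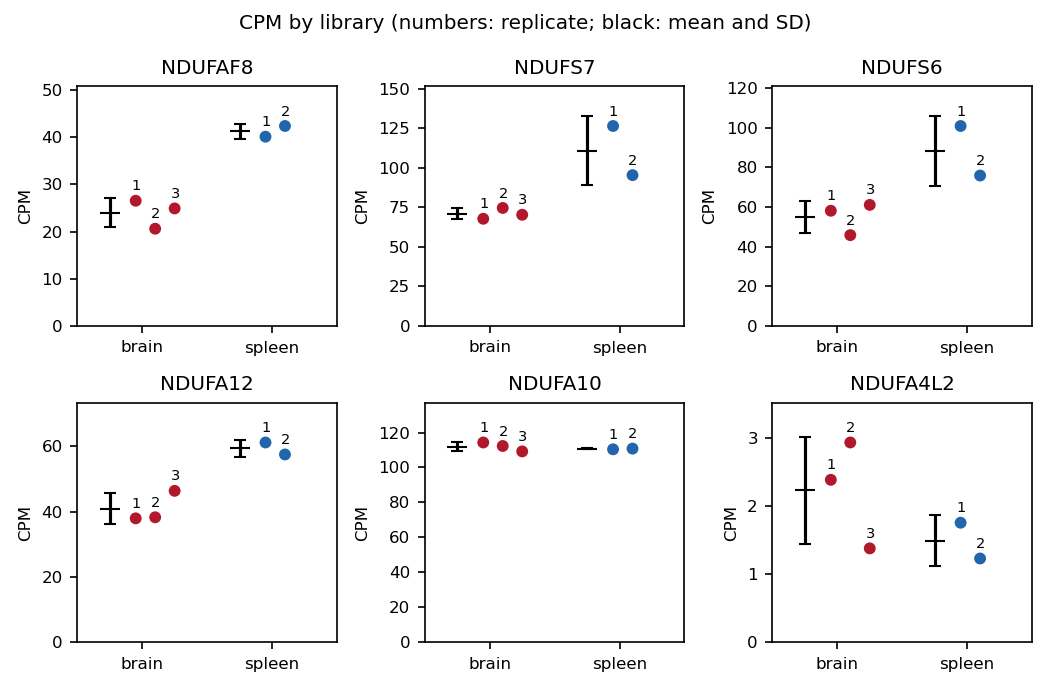
CPM of 6 NDUF genes in each library, with the replicate number above each point and the mean and SD in black (3 brain and 2 spleen libraries); each panel has its own axis, which starts at 0. The spleen libraries of NDUFAF8 are at 40.1 and 42.4 CPM, those of NDUFS7 at 126 and 95.3 CPM, and NDUFA10 lies between 109 and 114 CPM in all 5.

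Of the 8 assembly factors, 1 was lower in brain (12.5%, beside 3.5% of all genes) and 0 were higher. At an unadjusted p under 0.05, 2 were lower and 0 higher (11.3% and 14.2% of all genes), and DESeq2 called 1 lower and 0 higher. Their median log2 fold change was -0.28, and 7 of 8 lay below 0. NDUFAF8, the partner that stabilises NDUFAF5, which in turn hydroxylates NDUFS7, lies on chromosome 17 (81239305-81241310). Its levels were 26.5, 20.6 and 24.9 CPM in brain and 40.1 and 42.4 CPM in spleen. The spleen libraries were nearly equal and all brain libraries were well below them, with means of 24.02 ± 3.07 CPM (SD, n = 3) and 41.3 ± 1.61 CPM (SD, n = 2). The log2 fold change was -0.78 (SE 0.12), a change of -41.8%, and the edgeR adjusted p of 0.00734 was the smallest of all 48 genes.

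NDUFAF8 kept its call when each library was left out in turn, with edgeR adjusted p between 0.0165 and 0.0235. Without spleen replicate 1 its log2 fold change was -0.83, whereas the 9 called subunits then lay between -0.50 and -0.28 with edgeR adjusted p of 0.0716 to 0.244. Its log2 ratios of brain to spleen were -0.59 in occasion 1 and -1.02 in occasion 2, the reverse order of the subunit medians. It was past the threshold in 15 of 16 alternatives, and the exception was the mouse share covariate (edgeR adjusted p = 0.299). NDUFAF5 itself was at 17.8, 16.8 and 16.2 CPM in brain and 22.2 and 17.3 CPM in spleen, with overlap (-0.22, edgeR adjusted p = 0.340).

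The other assembly factors had log2 fold changes from -0.38 to 0.031 and edgeR adjusted p from 0.191 to 0.946. NDUFAF1, which works with ECSIT and ACAD9 on the membrane arm, was at 10.9, 9.30 and 12.4 CPM in brain and 15.9 and 12.5 CPM in spleen, and its groups were barely apart (-0.38, edgeR adjusted p = 0.191). NDUFAF2, the chaperone replaced by NDUFA12, was at 17.8, 15.1 and 19.1 CPM in brain and 24.3 and 18.3 CPM in spleen, with overlap (-0.30, edgeR adjusted p = 0.267). The partners NDUFAF3 and NDUFAF4, which bind the ubiquinone module early, overlapped between sites as well. NDUFAF3 was at 21.2, 22.9 and 27.8 CPM in brain and 27.3 and 30.3 CPM in spleen (-0.26, edgeR adjusted p = 0.258). NDUFAF4 was at 22.2, 21.4 and 25.6 CPM in brain and 31.7 and 25.1 CPM in spleen (-0.30, edgeR adjusted p = 0.198).

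NDUFAF6 and NDUFAF7 overlapped between sites and had log2 fold changes near 0. NDUFAF7, a methyltransferase of complex I assembly, was at 23.7, 22.2 and 20.7 CPM in brain and 21.2 and 22.3 CPM in spleen (0.031, edgeR adjusted p = 0.899), and its sign turned without brain replicate 1 or spleen replicate 1. NDUFAF6, needed for early assembly, was at 23.7, 21.2 and 21.96 CPM in brain and 24.2 and 21.0 CPM in spleen (-0.019, edgeR adjusted p = 0.946), and its sign turned under 4 alternatives. Exons of NDUFAF1, NDUFAF3, NDUFAF6 and NDUFAF7 overlap protein-coding genes on the opposite strand, which makes their values uncertain, and those of NDUFAF8 overlapped no other locus.

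By median level, subunits were more abundant than assembly factors. Per transcript length, as the authors' TPM rescaled to human transcripts, the median over 35 subunits was 169 TPM, from 22.4 TPM for NDUFV3 to 452 TPM for NDUFS5, and over 8 assembly factors 40.4 TPM, from 13.6 TPM for NDUFAF1 to 105 TPM for NDUFAF8. The subunits of 1 complex therefore spanned a 20.2-fold range of RNA level, and the assembly factors a 7.73-fold range. Summed TPM of the subunits was 5297, 5424 and 6000 in brain and 8072 and 7116 in spleen. For the assembly factors it was 311, 306 and 344 TPM in brain and 427 and 429 TPM in spleen. Both sums were lower in every brain library than in either spleen library.

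The balance between the kinds of gene did not separate the sites when NDUFAF8 was counted among the assembly factors. The ratio of summed subunit to summed assembly factor TPM was 17.0, 17.7 and 17.4 in brain and 18.9 and 16.6 in spleen, so the spleen libraries held both the highest and the lowest ratio. The mean log2 CPM of subunits minus that of assembly factors was 1.67, 1.78 and 1.78 in brain and 1.92 and 1.76 in spleen, which overlap too. Both measures include NDUFAF8, which was at 77.76, 73.02 and 83.45 TPM in brain and 148 and 144 TPM in spleen. With NDUFAF8 taken out of the sums, the ratio would be higher in both spleen libraries than in every brain library. The lack of separation therefore rests on that gene, and the balance without NDUFAF8 was not tested. The medians of -0.46 and -0.28 were not tested against each other, since genes are not replicates of a site. NDUFS7, NDUFA6 and NDUFC2-KCTD14 were left out of TPM because their transcript estimates did not sum to their gene counts within 5%.

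**Figure D4:**
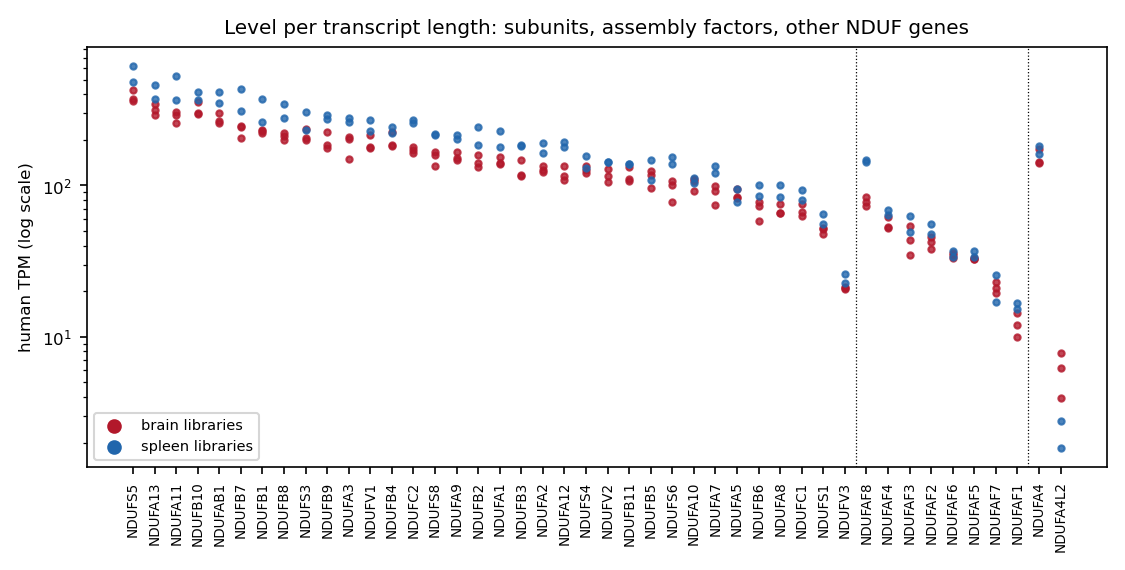
Level per transcript length (human TPM, log scale) of 34 subunits, 8 assembly factors and NDUFA4 with NDUFA4L2, each set sorted by mean level and set apart by dotted lines; each point is 1 library, red for brain and blue for spleen. Median levels were 169 TPM for the 35 subunits with a TPM and 40.4 TPM for the assembly factors, NDUFAF8 separates the sites most among the assembly factors, and NDUFA4L2 is lowest, at 1.85 to 7.87 TPM.

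The NDUF genes outside complex I behaved differently from each other. NDUFA4 was at 106, 101 and 121 CPM in brain and 162 and 125 CPM in spleen (-0.39, edgeR adjusted p = 0.104, and 0.0404 with the replicate block). NDUFA4L2 was scarce, with 93, 145 and 62 counts in brain and 77 and 62 in spleen. In CPM this was 2.38, 2.93 and 1.38 in brain and 1.75 and 1.23 in spleen, with overlap (0.58, SE 0.34, edgeR adjusted p = 0.328). It was past the threshold in 1 of 16 alternatives, the replicate block with the length trend (0.91, edgeR adjusted p = 0.0497). In TPM, which weighs the isoforms by their length, it was 6.21, 7.87 and 3.94 in brain and 2.80 and 1.85 in spleen, without overlap, so the separation depends on the unit. Exons of NDUFA4L2 overlap SHMT2 on the opposite strand by 33 bases, so its value is uncertain. NDUFC2-KCTD14 held 0, 14 and 0 counts in brain and 51 and 78 in spleen. No test is given for it, since it was kept only through spleen. It shares 428 exon bases with NDUFC2, so how reads were split between the loci is uncertain.

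Nuclear genes of the respiratory chain are known targets of NRF1, of the ETS factor GABPA and of YY1. Upstream sequence is shown for 3 subunits in which it holds an NRF1 or ETS motif. RefSeq promoter windows (GRCh38.p14, from 250 bases before to 50 after the start) matched 40 of 48 genes by symbol. The stretches printed are upstream of the start and outside annotated exons, 5′ to 3′ on the gene's strand, with motif letters in capitals. NDUFA12 was lower in brain and its stretch (chr12:95003749-95003947, minus strand) holds 1 NRF1 motif. NDUFB7 was lower in brain and its stretch (chr19:14572067-14572316, minus strand) holds 1 ETS motif. The stretches of NDUFS7, NDUFS6, NDUFS8, NDUFB8, NDUFB3 and NDUFA9, which were also lower in brain, held 0 matches. NDUFB4 did not pass (log2 fold change -0.20, edgeR adjusted p = 0.445) and its stretch (chr3:120596086-120596327, plus strand) holds 2 NRF1 motifs.
NDUFA12: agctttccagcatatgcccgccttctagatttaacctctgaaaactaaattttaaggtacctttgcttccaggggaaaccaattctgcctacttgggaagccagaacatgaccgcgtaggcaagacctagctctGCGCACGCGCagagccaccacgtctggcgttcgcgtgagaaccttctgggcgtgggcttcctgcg
NDUFB7: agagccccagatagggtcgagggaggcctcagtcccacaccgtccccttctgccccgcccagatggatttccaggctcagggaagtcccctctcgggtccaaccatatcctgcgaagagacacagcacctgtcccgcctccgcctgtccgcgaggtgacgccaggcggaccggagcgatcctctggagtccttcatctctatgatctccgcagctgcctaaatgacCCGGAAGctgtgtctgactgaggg
NDUFB4: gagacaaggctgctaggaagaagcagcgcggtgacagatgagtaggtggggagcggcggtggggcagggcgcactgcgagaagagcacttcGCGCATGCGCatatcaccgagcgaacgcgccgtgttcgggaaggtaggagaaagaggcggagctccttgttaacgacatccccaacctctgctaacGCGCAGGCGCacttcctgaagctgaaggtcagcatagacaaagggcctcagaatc

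The motifs were searched on both strands as CCGGAAG for ETS, AAGATGGCG for YY1 and, for NRF1, the letters in capitals in NDUFA12 and NDUFB4 with any base at the sixth position, in the same 300-base window of every gene, and matches could overlap. Of 32 subunits with a window, 6 held the NRF1 motif (18.8%), 5 the ETS motif (15.6%) and 5 the YY1 motif (15.6%). The shares were 6.28%, 10.7% and 1.85% of all 27305 promoters, and 10.8%, 17.7% and 3.53% of the 12567 promoters of tested genes. At least 1 of the motifs was found in 15 of 32 subunits (46.9%), in 2 of 7 assembly factors (28.6%) and in 28.5% of the promoters of tested genes. Among subunits, 4 of 8 that were lower in brain held one (50%), and 11 of 24 that did not pass (45.8%). The window of NDUFAF8 held none of these letters, but its part before the start lies wholly in annotated exons. What the absence means for the promoter of NDUFAF8 is therefore uncertain. A match is a description of sequence only.

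Outside the NDUF symbols, 12 further assembly factors held 3 genes lower in brain and 0 higher, beside 3.5% and 6.01% of all genes. The median log2 fold change of the 12 was -0.15. COA1, which acts in the membrane arm intermediate, was at 44.7, 45.2 and 45.6 CPM in brain and 75.01 and 61.5 CPM in spleen (-0.60, edgeR adjusted p = 0.0123). FOXRED1 was at 46.5, 47.5 and 44.1 CPM in brain and 65.9 and 60.96 CPM in spleen (-0.46, edgeR adjusted p = 0.0198). DMAC1, of the distal membrane arm intermediate, was at 57.1, 56.4 and 55.7 CPM in brain and 102 and 67.1 CPM in spleen (-0.58, edgeR adjusted p = 0.0492). All 3 had brain libraries within a narrow range below both spleen libraries. Without spleen replicate 1 their edgeR adjusted p were 0.0564, 0.0815 and 0.241, and with the replicate block that of DMAC1 was 0.0552. COA1 also lost its call without brain replicate 1, and FOXRED1 and DMAC1 lost theirs when any 1 brain library was left out.

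Of the 7 complex I subunits encoded by mitochondrial DNA, 3 were lower in brain and 0 higher, beside 3.5% and 6.01% of all genes. The median log2 fold change of the 7, however, was 0.081. MT-ND2 was at 1847, 1897 and 1888 CPM in brain and 3910 and 3609 CPM in spleen (-1.002, edgeR adjusted p = 0.000688). MT-ND3 and MT-ND1 had log2 fold changes of -0.56 and -0.37 (edgeR adjusted p = 0.0383 and 0.0491), and the other 4 were above 0 without passing. With each library left out in turn, MT-ND2 was past the threshold (edgeR adjusted p of at most 0.0125), MT-ND3 was so only without spleen replicate 2, and MT-ND1 in none. With the replicate block MT-ND1 was at 0.0883. The difference between nuclear and mitochondrially encoded subunits was not tested. Mitochondrial genes have nuclear copies, and their reads can be shared out between them.

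The rest of the respiratory chain is given beside complex I. Over all genes, 3.5% were lower and 6.01% higher. The shares were 11.3% and 14.2% at an unadjusted p under 0.05, and 6.67% and 7.56% by DESeq2. Complexes II, III and IV and ATP synthase held 0 genes that were higher in brain, also with DESeq2 or at an unadjusted p under 0.05. In complex II, 0 of 4 subunits were lower, with 1 at an unadjusted p under 0.05, 1 by DESeq2 and a median log2 fold change of -0.094, and SDHA, the flavin subunit, was at 0.055. In complex III, 3 of 9 nuclear subunits were lower (median -0.38), namely CYC1, UQCRC1 and UQCR10 with log2 fold changes of -0.42, -0.50 and -0.55. In complex IV, 3 of 10 were lower (median -0.45), namely COX7B, COX8A and COX5B with -0.56, -0.61 and -0.43. In ATP synthase, 4 of 15 were lower (median -0.34), among them ATP5MC1, ATP5MF and ATP5ME with -0.68, -0.57 and -0.70. Spleen replicate 1 held the highest value for all 9, 10 and 15 members of those 3 lists, as it did for 32 of 37 complex I subunits. Of the 10 called genes of those lists, 1 was past the threshold without spleen replicate 1 (ATP5MC1, edgeR adjusted p = 0.0400) and 10 were so without spleen replicate 2. When brain replicates 1, 2 and 3 were left out in turn, 0, 1 and 7 of the 10 were past it.

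Among regulators of mitochondrial biogenesis, 1 of 9 tested was lower in brain and 0 higher, beside 3.5% and 6.01% of all genes. The median log2 fold change of the 9 was -0.047. The lower gene was PPARGC1B, a coactivator of respiratory genes. It was at 31.6, 33.7 and 35.0 CPM in brain and 46.0 and 52.4 CPM in spleen (-0.56, edgeR adjusted p = 0.0141). At an unadjusted p under 0.05, 4 of these regulators were lower and 0 higher, beside 11.3% and 14.2% of all genes. Of the hypoxia-linked regulators of respiration, 3 of 6 tested were higher in brain, where 6.01% of all genes were higher, and 0 lower. These were BNIP3 and BNIP3L, receptors for the removal of mitochondria, and PDK1, which blocks entry of pyruvate into the citric acid cycle. BNIP3 was at 89.3, 114 and 80.7 CPM in brain and 19.5 and 19.6 CPM in spleen (2.28, edgeR adjusted p = 0.000167), and BNIP3L and PDK1 had log2 fold changes of 1.13 and 0.81. With each library left out in turn these 3 were past the threshold, with edgeR adjusted p of at most 0.00109 for BNIP3, 0.00585 for BNIP3L and 0.0436 for PDK1. PPARGC1B lost its call without brain replicate 1 (0.0748), brain replicate 2 (0.0504) or spleen replicate 2 (0.0522). With the mouse share as covariate BNIP3 was at 0.0133, and BNIP3L, PDK1 and PPARGC1B were not past the threshold (0.0715, 0.207 and 0.291). Other tested members of the hypoxia-linked list went the other way: HIGD1A and LONP1 were at -0.32 and -0.10 (edgeR adjusted p = 0.139 and 0.617). At an unadjusted p under 0.05, 1 member of this list was lower and 3 higher, beside 11.3% and 14.2% of all genes. NDUFA4L2 also belongs to the hypoxia-linked list.

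**Figure D5:**
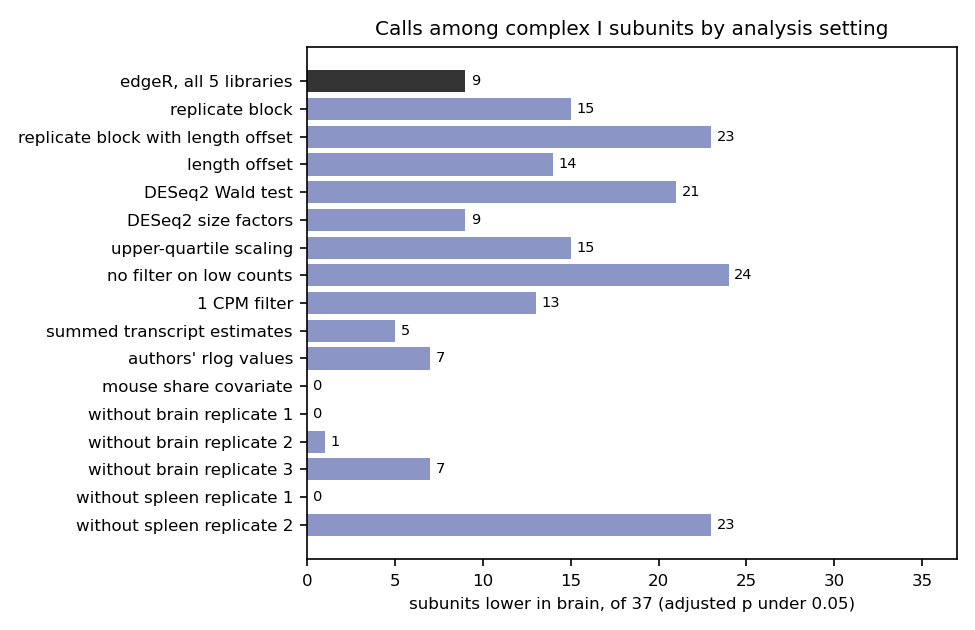
Number of the 37 complex I subunits lower in brain at an adjusted p under 0.05 with all 5 libraries by edgeR (dark bar) and under 16 alternatives (light bars). The count is 9 with all libraries, 0 without spleen replicate 1, without brain replicate 1 or with the mouse share as a covariate, and 24 with no filter on low counts.

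Across the 16 alternatives the direction of the subunits held more often than their calls did. The alternatives refit the same libraries, so a direction that holds is not separate support. Between 33 and 36 of the 37 subunits had a log2 fold change below 0 in every alternative, and the count of subunits past the threshold ran from 0 to 24. The 24 came with no filter on low counts, where 3.46% of all genes were lower and 4.74% higher. The share of all genes that was lower moved with the setting too: it was 8.67% with the block and the length trend (23 subunits), 4.21% with upper-quartile scaling (15), 3.15% with summed transcript estimates (5) and 2.27% without brain replicate 3 (7). It was 3.7% with DESeq2 size factors (9), 3.6% with the authors' rlog values (7) and 6.01% with a filter at 1 CPM (13).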

How the data were processed

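RNA was measured in 3 brain and 2 spleen libraries. Tools in the submitters' processing notes are kallisto 0.42.4, cutadapt 1.5, bcl2fastq 1.8.4 and DESeq2, with GRCh38 and GRCm38 as builds. How reads were counted by strand is not given in the sources used. Of the 48 genes, 21 have exons that overlap a locus on the opposite strand and 16 a locus on the same strand. Not all of these are pointed out by name. The deposited gene table holds estimated counts per human gene, written as whole numbers. The authors' transcript tables hold estimated counts and TPM over human and mouse transcripts, per the file headers, and TPM was rescaled here to human transcripts and summed per gene. The authors' rlog values, on a log2 scale, were used only as an alternative. Of each gene table, 1 column belongs to no sample and was not used.

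Identifiers were matched to GENCODE 44 (56322 matched, 99.76% of counts). Counts were tested with edgeR 4.0.16 in R 4.3.3 (filterByExpr, TMM, site as the only term, quasi-likelihood F test, Benjamini-Hochberg over 20419 genes, threshold 0.05), with 3 residual degrees of freedom and a common coefficient of variation of 0.148. Alternatives used DESeq2 1.42.0 and limma 3.58.1. CPM uses TMM-scaled library sizes, fold changes are brain over spleen, and estimated counts carry no interval. The labels tie a replicate number to an occasion, so the numbers in the titles pair the libraries. The deposited spleen columns, however, are numbered 2 and 4. Deviations of same-numbered libraries correlated at 0.030 for number 1 and 0.275 for number 2. Brain replicate 3, which has no partner, correlated at 0.206 with spleen replicate 1. With 2 spleen libraries the spleen deviations mirror each other (correlation -1), so these values cannot settle the pairing. The code was tested on simulated data.

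Genes named with values were the 10 members of smallest adjusted p past the threshold in each direction, all NDUFAF genes, the 3 most abundant subunits, the 2 largest and 2 smallest fold changes, NDUFA4, NDUFA4L2, NDUFAB1 and NDUFS7, and up to 3 called members of each further list. NDUFA9, NDUFB4, NDUFS1 and other subunits were named after their values were seen. The members and lists were chosen with earlier results of these data known. Of the subunits, 1 is counted in the totals and is not reported here.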

Additional observations from a re-analysis of the deposited data

How the results depend on the processing

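With 3 brain and 2 spleen pools, calls near the threshold depend on single libraries and settings, and a subunit outside the threshold is not shown to be unchanged. The count of 9 subunits lower in brain became 15 with the replicate block, 23 with the block and the length trend together, 14 with the length trend, 21 with DESeq2, 15 with upper-quartile scaling, 24 with no filter on low counts and 5 with summed transcript estimates. With the mouse share as covariate it was 0. Leaving out 1 library gave 0 to 23 subunits. The count stayed within 1.5 times of 9 with DESeq2 size factors, a filter at 1 CPM and the authors' rlog values. It also did so without brain replicate 3 (7 subunits). The median log2 fold change of the subunits was -0.69 with the mouse share and ran from -0.61 to -0.21 when 1 library was left out. For the assembly factors it ran from -0.43 to -0.11 when 1 library was left out. The count of assembly factors lower in brain was 2 with the block and length trend (NDUFAF8 and NDUFAF1), 0 with the mouse share, and 1 otherwise. No subunit and no assembly factor was higher in any of the 16 alternatives. The block otherwise changed the call of NDUFB7, which was lost, and of NDUFAB1, NDUFA4 and NDUFS5, which were gained, among the genes named by rule. The sign turned for genes near 0: NDUFA10 was -0.0017 with DESeq2 and -0.0016 with its size factors; NDUFB5 was -0.050 with the block, -0.085 with the mouse share, and from -0.10 to 0.15 when 1 library was left out. NDUFAF6 was 0.040 with the block and length trend, 0.027 with the length trend, and from -0.12 to 0.079 when 1 library was left out. NDUFAF7 ran from -0.018 to 0.074 when 1 library was left out. The cause of these changes was not tested.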
